A study of Mus musculus with 4 samples.

Results

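The 8 genes Dcx, Sox11, Sox4, Igfbpl1, Cd24a, Tubb3, Mki67 and Top2a were followed through single-nucleus RNA-seq of mouse brain. They were taken by name, as 6 genes of newly generated neurons and 2 genes of dividing cells, from the 31053 genes of the tables, and all 8 were present. Male mice had been given an adeno-associated virus by injection into the cerebrospinal fluid at the cisterna magna. The virus named AAV-VEGF-C encoded full-length mouse VEGF-C, a growth factor of lymphatic vessels, and AAV-CTRL carried the secreted VEGFR3(4-7)-Ig, a receptor fragment that does not bind VEGF-C. At 8 weeks of age the brains of 5 mice per virus were frozen, pooled and pulverised, and nuclei labelled cortex and striatum were sequenced from the same mice. There were thus 4 libraries, 1 per virus and region label, in which the mice cannot be told apart. With 1 library per group no test was possible, and every interval below is a 95% interval for counting error only.

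In the adult mouse forebrain, neural stem cells of the subventricular zone, the lining of the lateral ventricles, divide and give rise to neuroblasts, which migrate to the olfactory bulb and become interneurons. Neuroblasts of this lineage express Dlx transcription factors together with the microtubule protein doublecortin (Dcx), and dividing cells express the nuclear protein Ki-67 (Mki67) and DNA topoisomerase II alpha (Top2a). Doublecortin transcript is also found at lower levels in mature neurons, so a Dcx molecule alone does not make a nucleus a neuroblast.

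Mki67 (ENSMUSG00000031004, chromosome 7, 135689784 to 135716361, minus strand, mm10) and Top2a (ENSMUSG00000020914, chromosome 11, 98992943 to 99024189, minus strand) are shown with the 250 bases before their RefSeq start (GRCm38.p6), because they are read as a pair in the same nuclei. Capitals mark the CCAAT box (CCAAT, or ATTGG on the other strand) and the cell cycle homology region (TTTGAA or TTCAAA), sequence elements known from promoters of genes used in late cell cycle phases.
Mki67, chr7:135716380-135716629, minus strand: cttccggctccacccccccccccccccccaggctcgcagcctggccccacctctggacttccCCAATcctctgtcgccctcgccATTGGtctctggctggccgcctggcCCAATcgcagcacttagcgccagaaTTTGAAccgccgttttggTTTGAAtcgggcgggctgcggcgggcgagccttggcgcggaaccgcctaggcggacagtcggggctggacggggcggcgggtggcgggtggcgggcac
Top2a, chr11:99024190-99024439, minus strand: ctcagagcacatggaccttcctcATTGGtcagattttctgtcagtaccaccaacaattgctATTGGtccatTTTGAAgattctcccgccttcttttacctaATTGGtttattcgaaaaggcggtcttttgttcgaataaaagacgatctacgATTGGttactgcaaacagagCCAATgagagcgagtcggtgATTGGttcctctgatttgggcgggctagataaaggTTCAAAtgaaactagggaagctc
Mki67 held 3 CCAAT boxes and Top2a 6, and each held 2 cell cycle homology regions. The motifs were not particular to these genes. Among the other members with a RefSeq promoter, Sox4 held 4 CCAAT boxes and no cell cycle homology region, Sox11 held 1 of each, Tubb3 held 1 CCAAT box, and of the 2 Dcx promoters 1 held a CCAAT box. Of 32851 RefSeq promoters of this length, 2.79% held at least 3 CCAAT boxes, 16.0% held a cell cycle homology region, and 0.381% held at least 3 CCAAT boxes together with a cell cycle homology region. These matches describe letters in a window and not bound sites.

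After 5645 of 78728 barcodes were left out as likely doublets, 73083 nuclei remained, between 16243 and 21414 per library with a median of 2129 to 2655 UMIs (unique molecular identifiers, each counting 1 captured RNA molecule) and 58208463 to 70214978 UMIs in all. Between 76 and 118 cell barcodes were shared by each pair of libraries. The region labels were used as labels only, since marker genes went both with and against them. Slc17a7, the vesicular transporter of cortical excitatory neurons, went with them. Under the cortex label it was at 420 and 461 CPM (UMIs of a gene scaled to a library total of 1e6). Under the striatum label it was at 59.9 and 42.7 CPM. Gad2, an enzyme of GABA synthesis in GABAergic neurons of several classes, was higher under the striatum label, at 199 and 198 against 95.5 and 98.9 CPM. Ppp1r1b, the DARPP-32 gene of striatal projection neurons, went against the labels, at 63.1 and 75.7 CPM under the cortex label and 18.9 and 18.5 CPM under the striatum label. Drd1, a dopamine receptor gene, also went against them, at 26.7 and 34.0 against 11.2 and 9.92 CPM. The libraries labelled striatum also held olfactory sensory neuron-like nuclei (239 with AAV-CTRL and 15 with AAV-VEGF-C, against 3 and 6 under the cortex label). Where 4 values are listed, the cortex label comes first and the striatum label second, and within each label AAV-CTRL precedes AAV-VEGF-C.

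In the GRCm38/mm10 annotation Dcx (ENSMUSG00000031285) lies on chromosome X at 143855842 to 143933311, Sox11 (ENSMUSG00000063632) on chromosome 12 at 27334264 to 27342574, Sox4 (ENSMUSG00000076431) on chromosome 13 at 28948919 to 28953713 and Igfbpl1 (ENSMUSG00000035551) on chromosome 4 at 45809468 to 45826923, all on the minus strand. Cd24a (ENSMUSG00000047139) on chromosome 10 at 43578284 to 43584265 and Tubb3 (ENSMUSG00000062380) on chromosome 8 at 123411424 to 123422015 lie on the plus strand.

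Over whole libraries, none of the 8 genes was past 1.5-fold between viruses under either region label. Of all genes tested, 5.31% of 20726 were past it under the cortex label and 7.83% of 21206 under the striatum label. Beside such low shares, a count of 0 among 8 genes does not set them apart from other genes. Dcx was at 60.5, 64.8, 61.1 and 51.8 CPM, so that the AAV-VEGF-C library was the higher of the pair under the cortex label and the lower under the striatum label. Its log2 ratio of AAV-VEGF-C over AAV-CTRL was 0.10 (0.04 to 0.16) and -0.24 (-0.31 to -0.17). Sox11, a transcription factor of immature neurons, was at 24.7, 26.5, 38.2 and 35.6 CPM. Sox4, its close relative, which also acts in oligodendrocyte precursors, was at 28.4, 27.7, 26.7 and 24.9 CPM. For these transcription factors the region label separated the libraries of Sox11, and neither virus nor region separated those of Sox4 by as much.

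Igfbpl1, a secreted insulin-like growth factor binding protein-like gene known from neuroblasts, was at 3.78, 3.5, 4.64 and 4.21 CPM, with log2 ratios between viruses of -0.11 (-0.38 to 0.16) and -0.14 (-0.38 to 0.10). Cd24a, a surface glycoprotein of neuroblasts and of ciliated ependymal cells, was at 10.9, 8.72, 16.1 and 14.4 CPM. Tubb3, the neuronal beta-tubulin, was the most abundant at 110, 125, 145 and 167 CPM. The AAV-VEGF-C library was thus lower for Cd24a and higher for Tubb3 under both labels, with log2 ratios of -0.32 and -0.17 for Cd24a and 0.19 and 0.20 for Tubb3. Mki67 was at 4.19, 4.23, 3.12 and 2.5 CPM, and Top2a at 1.56, 1.97, 2.20 and 1.5 CPM. The largest ratio between viruses among the 8 was that of Top2a under the striatum label, -0.55 (-0.94 to -0.17), just inside 1.5-fold, whereas under the cortex label it was 0.33 (-0.06 to 0.73). The counting interval lay off 0 for 3 of the 8 genes under the cortex label, 2 above and 1 below, beside 28.7% of all genes. Under the striatum label it lay off 0 for 7 of 8, 1 above and 6 below, beside 38.6%. At this depth a narrow counting interval was common, and whether the 8 genes differ from these shares was not tested.

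**Figure D1:**
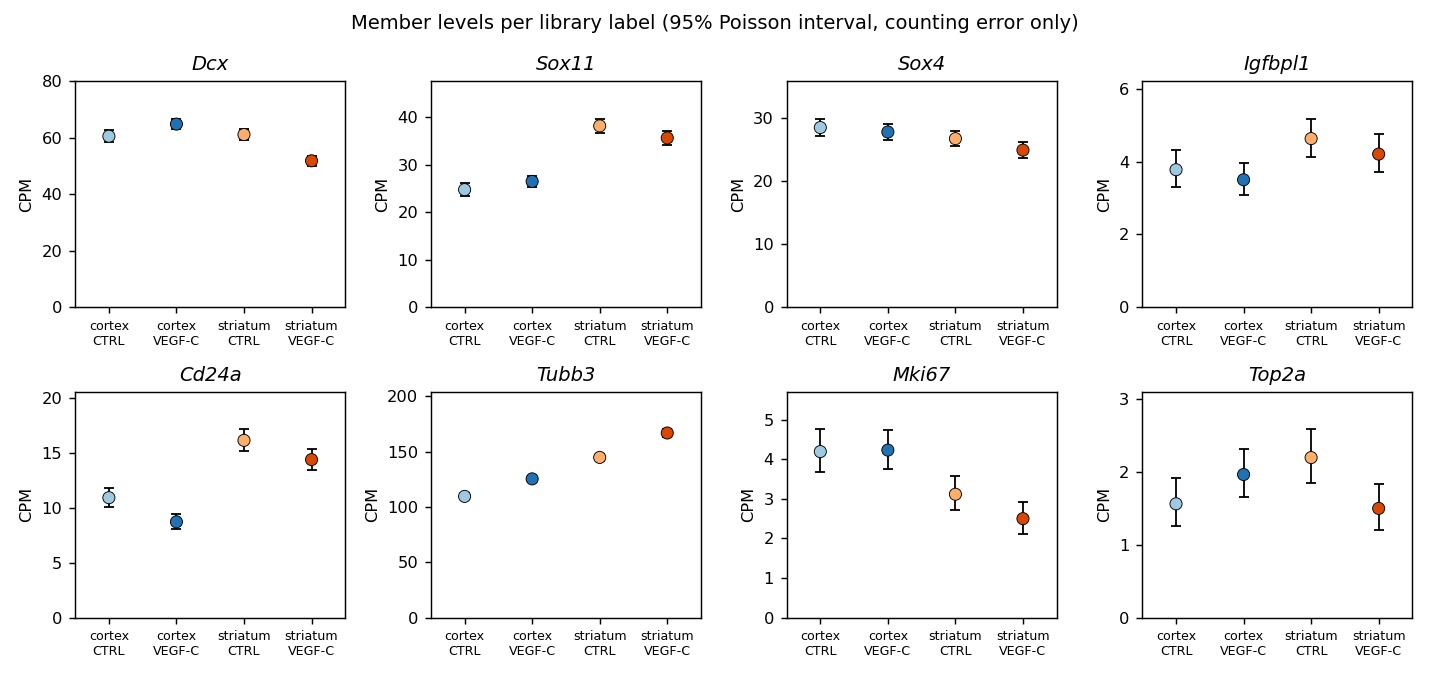
Level of each of the 8 genes in CPM (vertical axes from 0) in each of the 4 libraries (horizontal axis), with 95% Poisson intervals for counting error. Dcx was lowest with AAV-VEGF-C under the striatum label (51.8 CPM), and Sox11, Cd24a and Tubb3 were higher in both libraries labelled striatum than in both labelled cortex.

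Between region labels the differences were larger, as they were for genes at large. Of all genes, 30.4% were past 1.5-fold between the AAV-CTRL libraries and 30.8% between the AAV-VEGF-C libraries, and the median gene was itself higher under the striatum label by 0.17 and 0.19 on the log2 scale. Sox11 was higher under the striatum label with log2 ratios of 0.63 (0.53 to 0.72) with AAV-CTRL and 0.43 (0.34 to 0.52) with AAV-VEGF-C. For Cd24a these were 0.56 and 0.72, and for Tubb3 0.40 and 0.41, above the shift of the median gene in each case. Mki67 was lower under the striatum label, at -0.43 (-0.70 to -0.15) and -0.76 (-1.05 to -0.47). Top2a went both ways, at 0.49 with AAV-CTRL and -0.39 with AAV-VEGF-C. Past 1.5-fold were Sox11, higher under the striatum label with AAV-CTRL, and with AAV-VEGF-C Cd24a, higher, and Mki67, lower. By direction the backgrounds were 20.6% higher and 9.87% lower with AAV-CTRL, and 21.1% higher and 9.72% lower with AAV-VEGF-C. The counting interval lay off 0 for 6 of the 8 genes with AAV-CTRL, beside 67.4% of all genes, and for 8 of 8 with AAV-VEGF-C, beside 68.6%.

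The nuclei were grouped into clusters without the 8 genes, and clusters were named only from markers that exclude them. In 61 clusters of at least 50 nuclei, 6 of the 8 genes, Dcx, Sox11, Sox4, Igfbpl1, Mki67 and Top2a, had their highest level in the same cluster of 366 nuclei, a neuroblast-like cluster named from Dlx genes. The long noncoding RNA Dlx6os1 was at 1255, 1123, 925 and 1725 CPM in its 4 libraries. Dlx1 was at 145, 179, 86.6 and 129 CPM, from 25, 33, 25 and 8 UMIs. Of the 10 Dlx-list markers, 5 counted toward the name, over all libraries together, and the name was not examined library by library. The other leading genes of the cluster, named after their values were seen, were not evenly shared by the libraries. Gm29260, the first of them, had 63, 90, 6 and 0 UMIs, so nearly all came from the cortex label. Pax6 had 27, 33, 44 and 2 UMIs, Lockd 22, 28, 11 and 10, and Cdca7 15, 25, 7 and 3. Of its nuclei, 42.9% held UMIs of at least 2 of 10 Dlx-list genes. The share was 26.7% in the neuronal cluster led by Cpa6 described with the nuclei numbers, and 4.49% in other neurons without that cluster. These shares were taken without thinning, at median depths of 1766, 2555 and 4397 UMIs. The neuroblast-like cluster was named from the same list, so its share is no separate evidence for the name. Over all libraries Igfbpl1 was at 304 CPM (265 to 347) there and at 63.0 CPM in the next cluster of the order, a neuronal one led by Drd3. For each of the 6 genes the range over libraries in the neuroblast-like cluster did not overlap that of the next cluster, although the counting intervals of Sox4 there, 208 to 282 CPM, and in differentiating oligodendrocyte-like nuclei, 168 to 227 CPM, did. Cd24a was at 96.2 CPM there, below ependymal-like and erythroid-like nuclei, and Tubb3 was outside the 8 highest clusters.

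**Figure D2:**
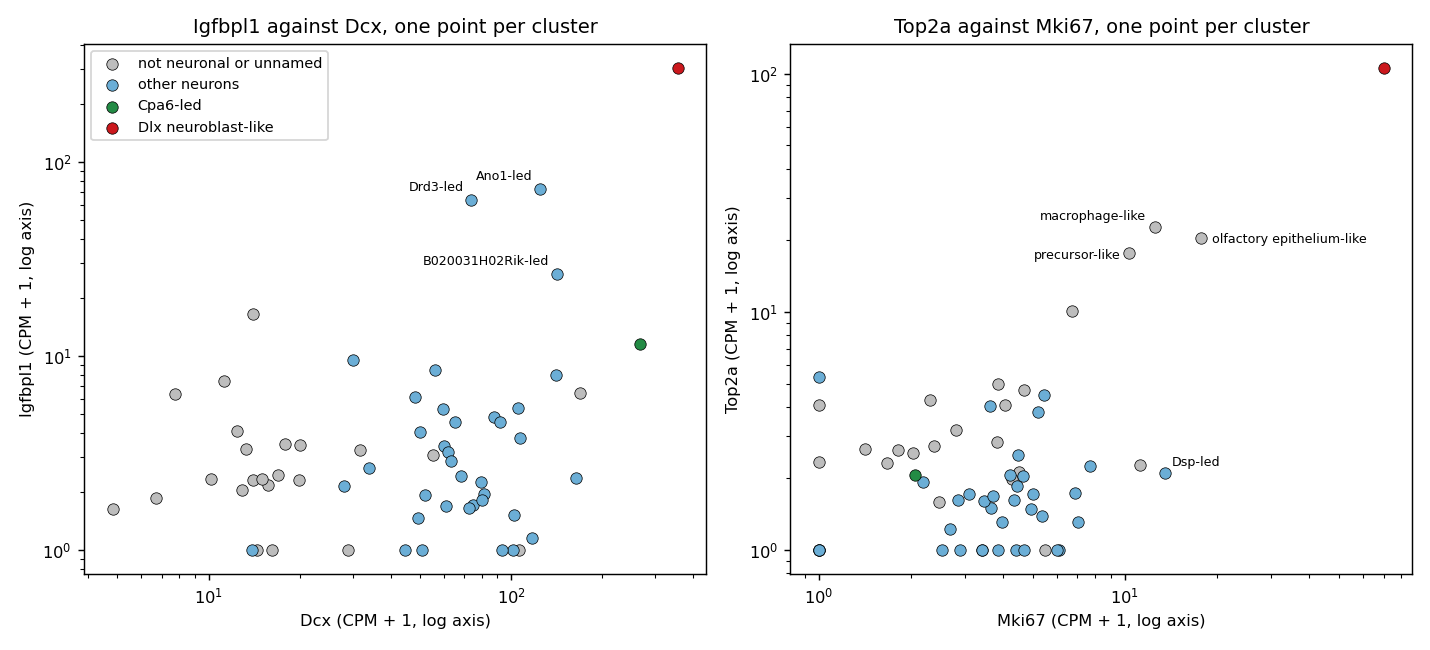
Igfbpl1 against Dcx (left) and Top2a against Mki67 (right), in CPM + 1 on log axes, with a point for each of 61 clusters over all 4 libraries. The Dlx neuroblast-like cluster stands at the top right of both panels, and the Cpa6-led cluster has a high Dcx level (266 CPM) with little Igfbpl1 (10.6 CPM).

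Within the neuroblast-like cluster Dcx was at 331, 380, 360 and 322 CPM, a span smaller than the counting intervals. Igfbpl1 was at 349, 488, 152 and 339 CPM, and Top2a at 134, 163, 41.6 and 145 CPM. Mki67 was at 69.7, 136, 27.7 and 64.5 CPM, from 12, 25, 8 and 4 UMIs. The striatum AAV-CTRL library was the lowest of the 4 for these 3 genes and for Sox11 (215, 217, 125 and 226 CPM), while its Dcx level was not. Cd24a (87.2, 130, 69.3 and 145 CPM) was lowest there too, and Tubb3 was at 157, 255, 204 and 274 CPM. Between viruses the counting interval lay off 0 only for Igfbpl1 at 1.15 (0.33 to 1.93) and Top2a at 1.80 (0.38 to 3.17). Both were under the striatum label, with 134 nuclei against 27, of which 3 and 2 held both Mki67 and Top2a. Counting intervals treat UMIs as independent and can be too narrow where few nuclei hold them.

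The number of neuroblast-like nuclei was 96, 109, 134 and 27, or 0.591%, 0.575%, 0.626% and 0.164% of kept nuclei. The striatum AAV-VEGF-C library thus stood below the other 3, whose exact binomial (Clopper-Pearson) intervals overlapped each other (0.472% to 0.741% in all, against 0.108% to 0.239%). The log2 ratio of AAV-VEGF-C over AAV-CTRL was -0.04 (-0.45 to 0.37) under the cortex label and -1.93 (-2.59 to -1.33) under the striatum label. Other nuclei moved with it in the same pair of libraries. A neuronal cluster of 348 nuclei led by Cpa6, Frmd7, Lgr6 and Trdn held 31, 11, 304 and 2 nuclei, a log2 ratio of -6.87 (-9.92 to -5.0) under the striatum label, and olfactory sensory neuron-like nuclei had a ratio of -3.61 (-4.47 to -2.86) there. The neuroblast-like and Cpa6-led clusters were not separate at a coarser clustering (resolution 1.2). There, 1 cluster led by Cpa6, Frmd7, Igfbpl1 and Lgr6 held 123, 120, 449 and 29 nuclei before doublets were left out. The counts of both clusters therefore depend on where it was split. The neuroblast-like, Cpa6-led and olfactory sensory neuron-like groups were all more frequent in the striatum AAV-CTRL library than in its AAV-VEGF-C counterpart. Which tissue entered the pooled powder cannot be told apart from the virus. The part of tissue content in the difference was not tested.

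**Figure D3:**
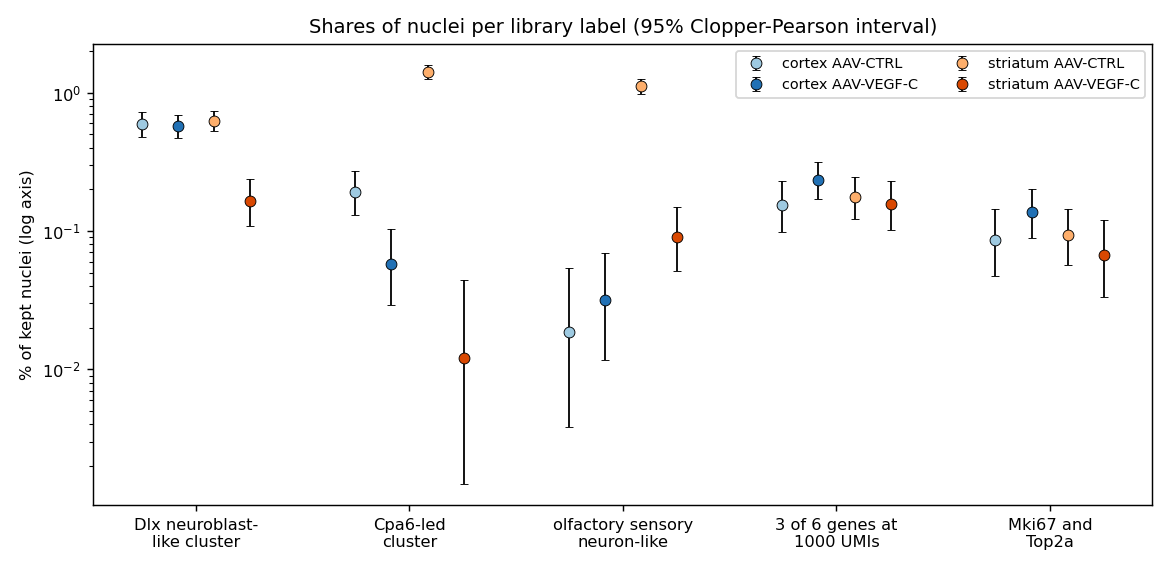
Share of kept nuclei (log axis, in percent) in each library for the neuroblast-like cluster, the Cpa6-led cluster, olfactory sensory neuron-like nuclei, nuclei co-expressing 3 of 6 genes and nuclei with Mki67 and Top2a. Bars are 95% Clopper-Pearson intervals, and the first 3 groups are lower with AAV-VEGF-C than with AAV-CTRL under the striatum label.

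Co-expression in the same nucleus was counted at an equal depth. Each nucleus of at least 1000 UMIs was thinned at random to 1000 UMIs, and a nucleus was taken as co-expressing when it held a UMI of at least 3 of Dcx, Sox11, Sox4, Igfbpl1, Cd24a and Tubb3. There were 24, 43, 35 and 25 such nuclei, or 0.154%, 0.235%, 0.176% and 0.156%, and all 4 intervals overlapped. The log2 ratio between viruses was 0.61 (-0.14 to 1.40) and -0.17 (-0.97 to 0.61), so no difference was detectable at this depth. Without thinning the criterion was met by 375, 541, 613 and 641 nuclei. These values come from 1 random draw. Over 20 draws the total ran from 111 to 138. The log2 ratio had a median of 0.18 (range -0.31 to 0.92) under the cortex label and -0.43 (range -1.24 to 0.36) under the striatum label, so the draw used here lay above both medians.

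Of the 127 co-expressing nuclei, 48 lay in the neuroblast-like cluster, 13.5% of its thinned nuclei. The share was 0.528% in excitatory neuron-like nuclei, 0.132% in unresolved neurons, and 0.0298% in oligodendrocyte-like nuclei, a type that should lack these genes as a set. The neuroblast-like co-expressing nuclei had a median of 1505 UMIs and those elsewhere 1979. At the equal 1000 UMIs, Igfbpl1 was found in 36 of the 48 and in 14 of the 79 elsewhere, whereas Tubb3 was found in 24 of the 48 and in 64 of the 79. Outside the cluster Tubb3 was thus the most frequent gene of the combination shown here, and Dcx was found in 53 of the 79. Among the genes with the highest ratio in co-expressing nuclei over other neurons without the Cpa6-led cluster were Gm38505 (14.4-fold), Dlx6os1 (13.2-fold), Tiam2 (5.86-fold), Ccnd2 (5.79-fold), Pbx3 (4.97-fold) and Meis2 (4.45-fold), of which Ccnd2 encodes the cyclin D2 of progenitors and Meis2 is known from the same lineage. The other genes of the 10 were the haemoglobin genes Hba-a1, Hbb-bt, Hbb-bs and Hba-a2, and 395 of the 454 haemoglobin UMIs of the 79 nuclei came from 1 erythroid-like nucleus of the cortex AAV-CTRL library. These 10 genes describe nuclei chosen on related genes and were not tested.

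Most Dcx in these libraries lay outside the neuroblast-like cluster. Other neurons, meaning nuclei of neuronal clusters without the neuroblast-like, olfactory sensory and co-expressing nuclei, held 91.5%, 92.0%, 85.6% and 90.2% of all Dcx UMIs, and the neuroblast-like cluster 1.62%, 1.54%, 2.56% and 0.623%. Among other neurons 24.2%, 25.6%, 24.7% and 25.5% of nuclei held a Dcx UMI, at a median of 3901 to 4658 UMIs. In oligodendrocyte-like nuclei the share was 1.91%, 3.31%, 2.51% and 1.96% at a median of 1612 to 2034 UMIs, so the neuronal share was above this background in each library, at more than the depth of the oligodendrocyte-like nuclei. At an equal 1000 UMIs, a Dcx UMI was found in 26.6%, 30.8%, 31.3% and 18.5% of neuroblast-like nuclei. In oligodendrocyte-like nuclei the shares at this depth were 1.12%, 1.92%, 1.70% and 0.914%. Over all kept nuclei, 11335 held a Dcx UMI without thinning and 3245 at 1000 UMIs. The shares of other neurons above, at their greater depth, are therefore not to be set beside those of neuroblast-like nuclei at 1000 UMIs.

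In other neurons Dcx was at 71.5, 75.8, 78.3 and 67.8 CPM. The AAV-VEGF-C library was the higher of the pair under the cortex label, with a log2 ratio of 0.08 (0.02 to 0.15), and the lower under the striatum label, at -0.21 (-0.28 to -0.14). The Cpa6-led cluster alone held 5.50% of Dcx UMIs in the striatum AAV-CTRL library and 0.0623% in the AAV-VEGF-C library, and its Dcx level, 266 CPM, was second of the 61 clusters. Without it the levels were 71.2, 75.7, 74.8 and 67.8 CPM and the ratios 0.09 (0.02 to 0.15) and -0.14 (-0.22 to -0.07). Within clusters with enough Dcx UMIs, 13 of 19 had a ratio above 0 under the cortex label and 15 of 22 a ratio below 0 under the striatum label. The interval lay off 0 in 1 cluster each, a Gm20752-led one at 0.36 (0.18 to 0.55) and a Lncenc1-led one at -0.18 (-0.28 to -0.09), and for all others it included 0. The median ratio over clusters was 0.14 and -0.13.

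**Figure D4:**
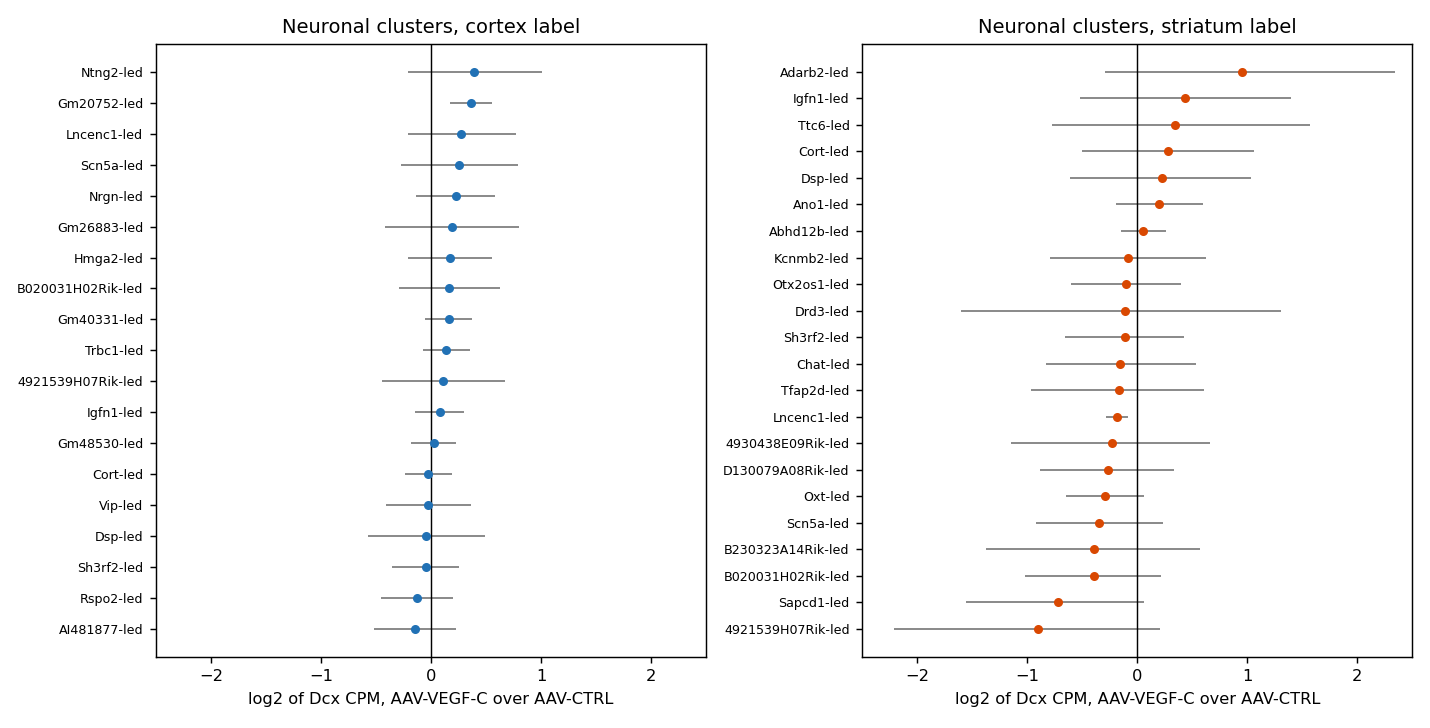
Log2 ratio of Dcx CPM, AAV-VEGF-C over AAV-CTRL, for each neuronal cluster (rows, named by leading gene) under the cortex label (left, 19 clusters) and the striatum label (right, 22 clusters), with 95% counting intervals. Most points lie to the right of 0 on the left and to the left of 0 on the right, and all but 1 interval in each panel include 0.

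In no named neuronal class did the interval of the Dcx ratio between viruses lie off 0. Sst/Pvalb interneuron-like nuclei were at 106 and 105 CPM under the cortex label, a log2 ratio of -0.02 (-0.23 to 0.20). Vip/Lamp5 interneuron-like nuclei were at 77.5 and 76.2 CPM and excitatory neuron-like nuclei at 53.5 and 55.4 CPM. Striatal projection neuron-like nuclei were the lowest of these 4 classes, at 34.8 and 32.2 CPM. The unresolved neurons, which no marker set named, were at 77.6, 85.4, 79.6 and 68.6 CPM. Their ratio was 0.14 (0.06 to 0.22) under the cortex label and -0.21 (-0.29 to -0.14) under the striatum label. The unresolved neurons included nuclei of the Cpa6-led cluster, which held 304 and 2 nuclei under the striatum label. Leaving that cluster out moved the ratio of all other neurons there from -0.21 to -0.14, and the unresolved neurons without it were not compared. After the neuroblast-like and Cpa6-led clusters, Dcx was highest in clusters led by Hmga2 (163 CPM), Corin (168 CPM), Otx2os1 (140 CPM) and B020031H02Rik (140 CPM). Each of these overlapped the next in order in its range over libraries, but the Hmga2-led cluster (151 to 170 CPM) did not overlap the Otx2os1-led one (137 to 148 CPM).

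Other members had further sites of their own. Igfbpl1 was at 71.2 CPM in an Ano1-led neuronal cluster and 25.5 CPM in the B020031H02Rik-led one, both far above its median over the 61 clusters, 1.44 CPM, and both with few Mki67 or Top2a UMIs. Sox4 was second in differentiating oligodendrocyte-like nuclei, at 204, 194, 191 and 197 CPM. Oligodendrocyte precursor-like nuclei followed at 78.8 CPM, and microglia-like nuclei at 73.1 CPM. Cd24a was highest in ependymal-like nuclei, at 567, 650, 363 and 376 CPM, where the region labels did not overlap. Erythroid-like nuclei held it at 152 CPM. Tubb3 was found in every cluster, from 63.0 to 370 CPM, and its 3 highest were an Oxt-led neuronal cluster, erythroid-like nuclei (335 CPM) and an Nrgn-led excitatory cluster (319 CPM), whose ranges over libraries overlapped. Glial and vascular clusters were among its 8 highest, so a Tubb3 UMI in these libraries was not particular to neurons.

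Mki67 and Top2a were then read together. A UMI of both was found in 14, 26, 20 and 11 nuclei, or 0.0862%, 0.137%, 0.0934% and 0.0668%, with overlapping intervals. The log2 ratio between viruses was 0.67 (-0.32 to 1.72) and -0.48 (-1.69 to 0.65), so a difference was not detectable. Other definitions gave other values. With Mki67 or Top2a the ratios were -0.0032 and -0.08. With at least 3 cell cycle genes, without thinning, they were 0.09 and 0.39, which turns the sign under the striatum label. At an equal 1000 UMIs the shares by that criterion were 0.314%, 0.334%, 0.296% and 0.256%, with overlapping intervals, and the sign did not turn. Without thinning it was met by 1284 unresolved neurons, 4.54% of that class, so it does not count dividing nuclei alone. Of the 71 nuclei, 20 were neuroblast-like, 5.46% (3.37% to 8.31%) of that cluster. A further 15 were oligodendrocyte precursor-like (0.760%), 13 unresolved neurons (0.0459%) and 11 astrocyte-like (0.120%), against 1 of 10398 oligodendrocyte-like nuclei. In the neuroblast-like cluster they numbered 6, 9, 3 and 2, and 8 of the 13 unresolved neurons were in the striatum AAV-CTRL library. In oligodendrocyte precursor-like nuclei Top2a was at 8.13, 14.8, 12.9 and 28.6 CPM and Mki67 at 7.12, 12.4, 8.32 and 9.28 CPM. The highest of these Top2a levels came from 37 UMIs in 9 nuclei, so counting intervals, which treat UMIs as independent, are too narrow here.

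Other genes of the cell cycle separated nuclei with both genes from nuclei with Mki67 alone. Of the 71, 70 held UMIs of at least 3 of 40 other cell cycle genes, with a median of 12. The 4 of these genes with the most UMIs in the 71 nuclei were Diaph3 (94 UMIs), a formin of cytokinesis, Knl1 (90), a kinetochore scaffold, Ezh2 (82), a histone methyltransferase, and Kif11 (75), the mitotic spindle kinesin. Knl1 was found in 66.2% of the 71 nuclei and in 0.516% of all others. The 746 nuclei with Mki67 and no Top2a held a median of 1 of the 40 genes, 8.04% held at least 3, and 613 of them were other neurons, at a median of 5034 UMIs. The 222 nuclei with Top2a alone held at least 3 in 21.6%, and nuclei with neither in 3.04%. A Dsp-led neuronal cluster showed the same split in its levels, with Mki67 at 12.5 CPM and Top2a at 1.11 CPM. The nuclei with Mki67 alone were the deepest of these groups and mostly neuronal, and most held 0 or 1 of the 40 genes.

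**Figure D5:**
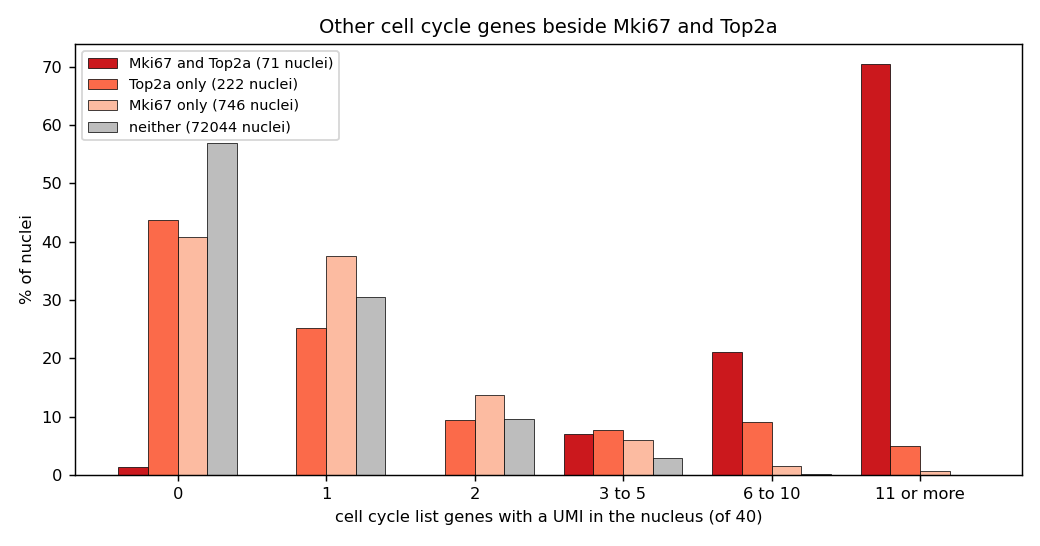
Percent of nuclei (vertical axis) by the number of 40 other cell cycle genes with a UMI (horizontal axis), for nuclei with Mki67 and Top2a, with Top2a only, with Mki67 only and with neither. With both genes, 70.4% of 71 nuclei held 11 or more, whereas with Mki67 only 40.8% of 746 nuclei held 0.

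Across the 61 clusters, the genes whose level was most like that of Dcx were Faxc, Fgf12, Dip2c, Unc79 and Myt1l, with Pearson r of log2(CPM + 1) from 0.845 to 0.812. Those most like Mki67 were Cenpe, Kif18a, Cenph, Mms22l and C330027C09Rik, from 0.748 to 0.591, of which Cenpe and Kif18a are mitotic kinesins. Among the members, Mki67 and Top2a had an r of 0.518, Dcx and Sox11 one of 0.636, and Dcx and Igfbpl1 one of 0.317. Dcx did not share the pattern of the other members, with r of -0.0147 for Sox4, -0.355 for Cd24a, -0.324 for Tubb3, 0.107 for Mki67 and -0.104 for Top2a. The clusters share libraries and differ in depth, so these values are descriptions.

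Lists of related genes were counted past 1.5-fold over whole libraries in the same way. Of 40 cell cycle genes, Bub1 and Rrm2 were higher with AAV-VEGF-C under the cortex label (background 2.34% higher and 2.97% lower), and under the striatum label Melk was higher, with Rrm2 and Esco2 lower (3.5% higher and 4.33% lower). Their median log2 ratio was 0.05 and -0.18, beside -0.01 and 0.00 over all genes tested. These ratios rested on few UMIs, for Bub1 on 8 and 21, for Rrm2 on 18 and 39 under the cortex label and 54 and 27 under the striatum label. Of 38 neuronal differentiation genes tested, Eomes, the transcription factor of glutamatergic progenitors, was the only one past the fold under either label. It was lower with AAV-VEGF-C in each, at 0.344 and 0.199 CPM and at 1.64 and 0.774 CPM. Under the cortex label its ratio also rested on few UMIs. A count of 1 lower gene of 38 is near the backgrounds of 2.97% and 4.33% lower, so it does not set the list apart. The list's most abundant genes in co-expressing nuclei, Dcc, Ncam1, Nfib and Dclk1, were not past it. Among 16 neural stem cell genes, Fabp7, a radial glial fatty acid binding protein, and Gfap, the glial filament of astrocytes and stem cells, were lower under the striatum label. Fabp7 was at 28.3 against 15.3 CPM and Gfap at 70.7 against 36.5 CPM. Before doublets were left out, an unnamed cluster with Fabp7 among its leading genes held 74 and 3 nuclei in that pair. The part of this cluster in the Fabp7 difference was not tested. Sp8 was the only one of 10 Dlx neuroblast markers past the fold, at 3.40 and 2.03 CPM under the striatum label, where that list's median was -0.39.

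Each of the 5 VEGF receptor genes was within 1.5-fold between viruses under both labels, with list medians of -0.19 in each. The counting interval lay below 0 for 4 of the 5 under the cortex label and for 3 under the striatum label, and above 0 for 0. For all genes it lay off 0 in 28.7% and 38.6%. In the neuroblast-like cluster Flt4, which encodes VEGFR3, the main receptor of VEGF-C, gave 0 UMIs in any library, and Kdr, which encodes VEGFR2, gave 4. For Flt4 the exact Poisson upper limit over the cluster was 5.22 CPM. The co-receptors Nrp1 and Nrp2 were at 31.1 and 41.0 CPM there and at 109 and 86.9 CPM in other neurons without the Cpa6-led cluster.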

How the data were processed

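Nuclei from frozen, pulverised brain were sequenced with the 10x Genomics droplet method. The deposited matrices hold raw UMI counts per gene and barcode; the authors made them with Cell Ranger, version 5.0.1 per the file headers and 5.1.1 per the submitters' processing notes, on mm10. No normalization had been applied to these counts. Depth is 58208463 to 70214978 kept UMIs per library, and intervals cover counting error only. UMIs cluster within nuclei, so intervals on sums can be too narrow.

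Likely doublets were left out with Scrublet (expected rate 8%). Nuclei were clustered with scanpy 1.11.5 and leidenalg 0.10.2 (50 principal components, 15 neighbours) on 4996 variable genes that exclude the 8 genes. Named classes come from resolution 1.2 (59 clusters), with 1 cluster split as at resolution 2 after it had been seen. That cluster was led by Cpa6, and its nuclei that were not neuroblast-like stayed among the unresolved neurons. Levels, orders, correlations and Dcx ratios by cluster use the 61 of 75 clusters at resolution 2 that held at least 50 nuclei and were no doublet cluster. Names need at least 3 markers at 2-fold and in 10% of nuclei. This naming rule was revised after the clusters were seen. Levels are CPM of summed UMIs with exact Poisson intervals, shares have Clopper-Pearson intervals, and ratios conditional binomial ones, with numpy 2.4.6, scipy 1.17.1 and pandas 2.3.3. Figures were drawn with matplotlib 3.10.9. For co-expression, nuclei were thinned to 1000 UMIs, and 634, 702, 1480 and 425 nuclei per library fell below that depth. The rule for named genes takes the 8 genes, up to 4 genes of each list with most UMIs in co-expressing nuclei (for the cell cycle list, in nuclei with Mki67 and Top2a), the 10 genes of highest CPM ratio of co-expressing nuclei over other neurons without the Cpa6-led cluster (at least 50 UMIs), and the 5 genes most like Dcx and Mki67 over clusters (at least 200 UMIs). List genes past 1.5-fold and cluster leaders were named after their values were seen. Scripts were tested on simulated data. The 8 genes and all lists were chosen with earlier results of these data known.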

Additional observations from a re-analysis of the deposited data

Results flagged for a closer look

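The Dcx ratio of AAV-VEGF-C over AAV-CTRL had opposite signs under the 2 region labels, and the difference between the labels was not tested because each group is 1 library. The log2 ratio was 0.10 under the cortex label and -0.24 under the striatum label in all kept nuclei. In other neurons it was 0.084 and -0.21, and in other neurons without the Cpa6-led cluster 0.0871 and -0.14.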

How the results depend on the processing

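No paired analysis was possible because each group has 1 library, and leaving out a replicate was not possible for the same reason. Of the alternatives to the principal results, 55 left the value within its counting interval or 1.5 times its count and 4 did not, and no called value changed sign. Some of the 55 could not have moved. With 0 of 8 genes past 1.5-fold and all 8 counted, a fold of 2, no minimum of UMIs or a minimum of 100 UMIs could only repeat that count. Under the striatum label the number of the 8 genes past 1.5-fold was 1 in place of 0 with doublets kept, without the co-expressing nuclei and, chosen after seeing the data, without both the neuroblast-like and Cpa6-led clusters. The gene was Top2a each time, at -0.61, -0.65 and -0.59 in place of -0.55. The log2 ratio of the neuroblast-like cluster under the striatum label was -3.5 for its undivided parent cluster at resolution 1.2, in place of -1.93. That parent cluster was led by Cpa6 and also had Igfbpl1 among its leading genes. Without both clusters the Dcx ratio under the striatum label was -0.15 in place of -0.24. The co-expressing nuclei under the striatum label had a log2 ratio of 0.44 without thinning and 0.09 at 2 of 6 genes, in place of -0.17, and the main interval includes 0. The ratio of nuclei with Mki67 and Top2a under the striatum label was 0.39 with at least 3 cell cycle genes, unthinned, in place of -0.48. At an equal 1000 UMIs the shares by that criterion were 0.296% with AAV-CTRL and 0.256% with AAV-VEGF-C, so the sign did not turn. Under the cortex label the ratio was -0.0032 with Mki67 or Top2a in place of 0.67. The count of nuclei with Mki67 and Top2a after thinning gave no value under the striatum label. The cause of these shifts was not tested. Depth limits the counts of co-expressing and dividing nuclei (11 to 43 per library).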
